A study of Mus musculus with 8 samples.

Results

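The guanylate-binding protein (GBP) genes Gbp2, Gbp3, Gbp4, Gbp5, Gbp6, Gbp7, Gbp8, Gbp9, Gbp10 and Gbp11 were examined in cultured mouse astrocytes. The 10 genes were taken by their symbols from the 54146 genes in the table of each library. The cells were primary cortical astrocytes from neonatal C57BL/6 mice, depleted of CD11b-positive cells. They were infected with a lentivirus carrying either a control shRNA (control KD) or an shRNA against Gstm1 (GSTM1 KD), and both kinds of culture went through puromycin selection. Each kind was left without stimulation (the basal level) or given TNF-α (50 ng/ml) during 6 h, and RNA-seq was carried out on 2 biological replicates in each of the 4 groups. The design asks what a glutathione S-transferase, GSTM1, does to the transcriptional response of astrocytes to TNF-α. No rescue of GSTM1 is among the groups, so an off-target effect of the Gstm1 shRNA and an effect of lost GSTM1 cannot be told apart.

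GBPs are large GTPases of the dynamin superfamily. Interferon-γ and, more weakly, type I interferons induce their genes, in part through the transcription factor IRF1, and TNF-α signals mainly through NF-κB. The proteins assemble as coats on bacteria, on parasite vacuoles and on lipopolysaccharide, where they work with the immunity-related GTPases (IRGs) and with caspase-11, the product of mouse Casp4. Some members, among them Gbp2 and Gbp5, carry a C-terminal lipid anchor.

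The libraries held between 17349676 and 34434633 expected counts, and between 19434 and 21610 genes had a count. Gstm1, the target, checked the labels first. Levels of a gene are given as CPM, counts scaled to the size of the library. At the basal level Gstm1 had 230.4 and 376.9 CPM in the control KD libraries against 29.0 and 31.3 CPM in those of GSTM1 KD. With TNF-α it had 208.8 and 390.4 CPM against 24.3 and 23.3 CPM. All 10 astrocyte markers were above 3 counts in every group. Their summed level was 3229 CPM at the basal level and 3315 CPM with TNF-α in the control KD libraries numbered 1. It was 7203 and 7336 CPM in those numbered 2, and between 6567 and 9600 CPM in GSTM1 KD. Between the knockdowns 1 of the 10 passed: S100b was lower in GSTM1 KD without TNF-α (-1.44 on the log2 scale, SE 0.23, adjusted p = 0.0269) and with it (-1.71, SE 0.37, adjusted p = 0.0387). Gfap alone was at 995 CPM in control KD replicate 1 and 3078 CPM in replicate 2 at the basal level. These control KD libraries numbered 1 also had the lower level of several GBP genes, as given below, and the part of the marker difference in those results was not tested. Of the 12 microglia and macrophage markers, P2ry12 was at 3 counts or fewer in every library, and the summed level lay between 47.6 and 57.8 CPM in all 8 libraries. The 7 lymphocyte markers were at 3 counts or fewer in every library. Other marker lists separated the knockdowns. With TNF-α, the 9 markers of the oligodendrocyte lineage summed to between 552 and 629 CPM for control KD against 424 to 448 CPM for GSTM1 KD, with Mog and Mag at 3 counts or fewer in every library, and 2 of 6 tested were lower in GSTM1 KD (Olig1 and Olig2). The 7 fibroblast markers summed to between 2567 and 2634 CPM against 1979 to 2076 CPM (Col1a2 lower, Pdgfrb higher). Most of this sum was Fn1, at 2300 and 2191 CPM against 1786 and 1767 CPM, which did not pass (adjusted p = 0.101). The 7 endothelial markers summed to between 22.9 and 28.8 CPM against 13.2 to 18.3 CPM, with Cldn5 at 3 counts or fewer throughout. Of the 4 endothelial markers tested, Esam passed, lower in GSTM1 KD. Only 1, Kdr, had a log2 fold change above 0 (1.25, SE 0.35, adjusted p = 0.0644). The 7 neuronal markers summed to between 305 and 307 CPM against 345 to 366 CPM, with Snap25 at 3 counts or fewer and 0 of 4 tested passing. The basal sums of these 4 lists differed in the same directions without overlap, and their part in the GBP results was not tested. In these bulk cultures, fewer cells with a transcript and less of it per cell cannot be told apart.

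The 10 genes lie in 2 clusters (build GRCm38, GENCODE annotation). The 4 genes Gbp5, Gbp7, Gbp3 and Gbp2 lie in this order on the plus strand of chromosome 3, within chr3:142493978-142638008. The 6 genes Gbp8, Gbp9, Gbp4, Gbp10, Gbp6 and Gbp11 lie on the minus strand of chromosome 5, within chr5:105014150-105346472. All but Gbp11 are annotated as protein coding; Gbp11 (chr5:105323042-105346472) is annotated as a polymorphic pseudogene. RefSeq promoter windows (GRCm38.p6), each holding 250 bases before and 50 after a transcription start, matched the 4 members on chromosome 3. They are shown for the motifs of interferon and NF-κB signalling in genes that rose with TNF-α. All 4 windows are on the plus strand, at chr3:142496684-142496983 for Gbp5, chr3:142530086-142530385 for Gbp7, chr3:142559794-142560093 for Gbp3 and chr3:142620413-142620712 for Gbp2. The Gbp5 window lies inside the span of the gene, since GENCODE has transcripts that start further upstream. Capitals mark the interferon-stimulated response element (ISRE, the letters TTTC, then NN, then TTTC, where N is any base) in all 4 windows and the κB motif in that of Gbp5. The sequences are as follows.
Gbp5: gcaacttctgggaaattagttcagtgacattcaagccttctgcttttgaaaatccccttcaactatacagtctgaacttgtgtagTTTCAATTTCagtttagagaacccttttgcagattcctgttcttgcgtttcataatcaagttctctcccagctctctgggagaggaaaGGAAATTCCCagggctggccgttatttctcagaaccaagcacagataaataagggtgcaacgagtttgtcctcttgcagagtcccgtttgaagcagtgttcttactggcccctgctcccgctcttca
Gbp7: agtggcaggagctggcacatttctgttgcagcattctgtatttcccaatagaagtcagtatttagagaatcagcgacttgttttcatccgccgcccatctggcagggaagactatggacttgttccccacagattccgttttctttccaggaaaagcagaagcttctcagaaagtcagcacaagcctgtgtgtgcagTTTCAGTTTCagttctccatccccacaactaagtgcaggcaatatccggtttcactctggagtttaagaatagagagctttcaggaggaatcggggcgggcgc
Gbp3: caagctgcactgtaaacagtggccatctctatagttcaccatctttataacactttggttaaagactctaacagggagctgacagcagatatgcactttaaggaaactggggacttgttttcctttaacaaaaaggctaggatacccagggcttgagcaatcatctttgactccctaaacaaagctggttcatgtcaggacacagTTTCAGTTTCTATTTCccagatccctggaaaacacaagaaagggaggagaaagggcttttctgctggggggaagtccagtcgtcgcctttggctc
Gbp2: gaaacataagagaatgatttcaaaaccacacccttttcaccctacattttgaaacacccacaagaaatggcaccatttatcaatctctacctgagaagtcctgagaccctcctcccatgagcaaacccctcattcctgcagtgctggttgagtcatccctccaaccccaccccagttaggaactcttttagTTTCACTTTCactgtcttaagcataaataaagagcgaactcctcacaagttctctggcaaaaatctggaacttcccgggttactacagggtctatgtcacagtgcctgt

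The ISRE letters, searched on both strands, were found in each of these windows. The first base lay at -165 from the start in Gbp5, -53 in Gbp7 and -59 in Gbp2, and Gbp3 held 2 overlapping matches at -45 and -39. A further RefSeq window of Gbp3, at chr3:142560106-142560405, held none of the motifs searched. Of all 32851 promoter windows of this length, 3.44% held the ISRE letters. The letters of the γ-activated site (GAS, TTCNNNGAA, which reads alike on both strands) were found at -245 and -52 in Gbp5 and at -106 and -87 in Gbp7, and in 8.30% of all windows. The κB motif was searched in its strict form on both strands (GGG, a purine, any base, A or T, a pair of pyrimidines, then CC). In this form it was found in Gbp5 alone among the 4, on the minus strand at -77, and in 4.51% of all windows. A match is a description of the letters, not of binding.

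Several members share sequence with other gene models, which limits how the counts of each can be read. Of the 100-base words in the transcripts of Gbp10, 73.5% also occur in transcripts of other genes, and the share was 64.5% for Gbp6, 10.01% for Gbp7 and at most 5.13% for the other members. For Gbp6 and Gbp10 the other model was mainly Gm43302 (chr5:105214907-105293695, minus strand), which spans exons of both genes, and for Gbp7 it was Gm43802, a processed pseudogene inside it. The deposited counts were fractional in 8 of 8 libraries for Gbp6, Gbp7 and Gbp10, because the counting program divided such reads. Gbp2 shared no word with another gene and Gbp5 shared 0.14%, so their values rest almost wholly on reads of their own. Gbp4, Gbp8 and Gbp9 share 60 or 61 exonic bases with each other.

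Levels were compared between genes per length, as the authors' TPM, an abundance scaled for gene length and library size. At the basal level of control KD, Gbp2 had the highest mean (23.3 ± 11.7 TPM, SD, n = 2), followed by Gbp3 (18.0 ± 9.90), Gbp6 (15.5 ± 3.44), Gbp7 (8.17 ± 1.62), Gbp9 (4.14 ± 1.499) and Gbp5 (2.75 ± 0.98). Gbp4 (0.73 ± 0.099), Gbp10 (0.29 ± 0.23), Gbp11 (0.090 ± 0.071) and Gbp8 (0.020 ± 0.028) were under 1 TPM. The replicate ranges of Gbp2, Gbp3 and Gbp6 overlapped. Within each library, however, Gbp2 was above Gbp3 (73.0% and 79.0% of Gbp2) and Gbp6 (87.1% and 56.8%). The order of Gbp3 and Gbp6 differed between the libraries and is not settled. Without TNF-α, the GSTM1 KD astrocytes had Gbp3 (34.2 ± 5.01 TPM) and Gbp2 (32.8 ± 4.55 TPM) as the highest. Their ranges overlapped, with Gbp3 slightly the higher within each library (103.9% and 104.9% of Gbp2). After TNF-α, Gbp2 led in both kinds of culture (309 ± 190 TPM for control KD, then 518 ± 49.0 TPM for GSTM1 KD), followed by Gbp5 (235 ± 128 and 219 ± 27.7 TPM) and Gbp6 (185 ± 103 and 219 ± 24.5 TPM). Gbp5 thus went from the sixth place to the second. After them came Gbp3 (72.3 ± 23.5 and 166 ± 17.6 TPM) and Gbp7 (47.4 ± 17.6 and 94.4 ± 21.9 TPM). The 3 highest genes overlapped in their replicate ranges in control KD, but within each of its libraries the order was Gbp2, Gbp5, Gbp6. In GSTM1 KD Gbp2 stood above Gbp5 and Gbp6, whose order differed between the libraries. The summed TPM of the 10 genes was 52.1 and 93.9 at the basal level and 556 and 1215 after TNF-α in control KD. GSTM1 KD libraries summed to 93.5 and 107 TPM without TNF-α and to 1405 and 1174 TPM with it.

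**Figure D1:**
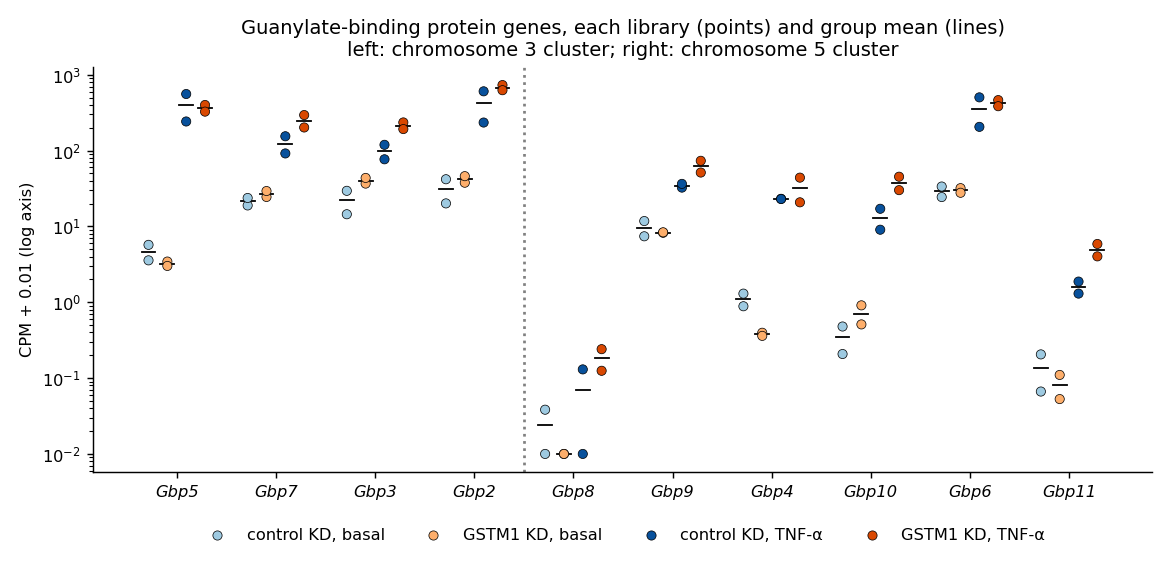
Level of each of the 10 genes in each of the 8 libraries (vertical log axis, CPM + 0.01; 1 point a library, lines for the group means of n = 2), in genome order with the chromosome 3 cluster on the left. For 9 genes every library with TNF-α lies above both basal libraries of the same knockdown, and Gbp8 stays near 0.

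TNF-α raised 8 of the 10 genes in control KD astrocytes. Gbp8 had too few counts to be tested. Gbp11 passed the filter on low counts only through the libraries with TNF-α, so its fitted response had to differ, and it is given by its counts alone. By the quasi-likelihood test of edgeR, with p-values adjusted after Benjamini and Hochberg over all genes, 8 of the 8 members that also passed the filter in the basal libraries were higher at an adjusted p under 0.05, where 2.1% of the 15332 genes tested were. The basal filter pooled both knockdowns. Gbp10 would not have passed it on control KD alone, nor Gbp4 on GSTM1 KD alone. The median log2 fold change was 3.69 over the 8 members and -0.021 over all genes tested. In all 8 the libraries with TNF-α lay above the basal ones without overlap, as did 16.2% of all genes.

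Gbp5, known for its part in inflammasome assembly, rose the most. It had 3.56 and 5.71 CPM at the basal level and 242 and 557 CPM with TNF-α in control KD. That is a log2 fold change of 6.45 (SE 0.48, adjusted p = 0.00128), or 87.1-fold. Gbp2, which is recruited to pathogen vacuoles, went from 20.1 and 41.9 CPM to 234 and 605 CPM (log2 fold change 3.76, SE 0.52, adjusted p = 0.0127). For both genes the replicates with TNF-α differed more than 2-fold from each other, with replicate 1 the lower, and both were far above the basal range. Gbp3 had 14.5 and 29.5 CPM at the basal level and 76.8 and 119 CPM with TNF-α (log2 fold change 2.16, SE 0.35, adjusted p = 0.0238). Gbp7, linked to autophagy and oxidase assembly in macrophages, had 18.9 and 23.7 CPM and then 91.7 and 155 CPM (2.53, SE 0.29, adjusted p = 0.00764). On chromosome 3 the smallest rise was therefore that of Gbp3, which was among the highest at the basal level.

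On chromosome 5, Gbp10 rose the most. It was at 0.20 and 0.47 CPM at the basal level and at 9.04 and 17.1 CPM with TNF-α in control KD (log2 fold change 5.33, SE 0.53, adjusted p = 0.00433). The basal values of Gbp10 rest on 6.63 and 11.7 counts, so its place as the largest rise is a description only. Gbp4 went from 0.88 and 1.29 CPM to 23.1 and 23.0 CPM (4.43, SE 0.40, adjusted p = 0.00309), and its replicates with TNF-α were nearly equal. Gbp11, the annotated pseudogene, had 2 and 5 counts at the basal level and 30.1 and 31 counts with TNF-α. That is a ratio of 13.3 in CPM, with an exact 95% interval of 6.10 to 34.6 that covers counting error only. Gbp6 was the most abundant gene of this cluster. It had 24.4 and 33.6 CPM at the basal level and 206 and 504 CPM with TNF-α (3.61, SE 0.42, adjusted p = 0.00764). Gbp9 rose the least of the 8, from 7.40 and 11.8 CPM to 32.5 and 36.4 CPM (1.85, SE 0.25, adjusted p = 0.0119). Gbp8 had 10 counts in all 8 libraries together, in 4 of them, and was not tested.

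The fit shares its estimate of the spread over all 8 libraries. With only the 4 control KD libraries, 2 of the 8 (Gbp4 and Gbp5) remained under the threshold, with the log2 fold changes still above 0. Without control KD TNF-α replicate 2 the count was 6, with Gbp3 and Gbp9 lost, and without both control KD libraries numbered 1 it was 7, with Gbp9 lost.

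In GSTM1 KD astrocytes TNF-α also raised the 8 members, Gbp11 again left out, where 2.35% of all genes tested were higher. The groups did not overlap in any of the 8, as in 22.4% of all genes. The median log2 fold change was 3.92 over the 8 members and -0.007 over all genes. Gbp5 had 3.43 and 3.004 CPM at the basal level and 399 and 326 CPM with TNF-α (log2 fold change 6.81, SE 0.49, adjusted p = 0.00111). Gbp4 had 9 and 7 counts at the basal level, or 0.39 and 0.35 CPM, and 44.0 and 20.8 CPM with TNF-α (6.44, SE 0.48, adjusted p = 0.00118). Gbp4 started below its control KD level and ended with 1 library just under the control KD level and 1 above it. Gbp10 went from 0.90 and 0.50 CPM to 45.2 and 30.1 CPM (5.72, SE 0.49, adjusted p = 0.00191). Gbp2 went from 37.7 and 46.0 CPM to 732 and 626 CPM (4.02, SE 0.52, adjusted p = 0.00922). Gbp6 went from 32.0 and 27.8 CPM to 463 and 385 CPM (3.83, SE 0.42, adjusted p = 0.00473). In these last 3 genes the replicates with TNF-α were within 2-fold of each other. Gbp7 went from 24.5 and 29.3 CPM to 294 and 202 CPM (3.21, SE 0.30, adjusted p = 0.0027). Gbp9 went from 8.24 and 8.36 CPM to 73.4 and 51.3 CPM (2.91, SE 0.26, adjusted p = 0.00217). Gbp3 had the smallest rise, from 36.7 and 43.6 CPM to 235 and 192 CPM (2.41, SE 0.35, adjusted p = 0.0144). Gbp11 had 3 counts over both basal libraries and 197 over both with TNF-α, a ratio of 72.7 in CPM with an exact 95% interval of 24.5 to 356. The count of members called, of the 8, was 4 without GSTM1 KD basal replicate 1 (Gbp3, Gbp2, Gbp7 and Gbp6 lost) and 5 without replicate 2 (Gbp3, Gbp2 and Gbp6 lost).

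**Figure D2:**
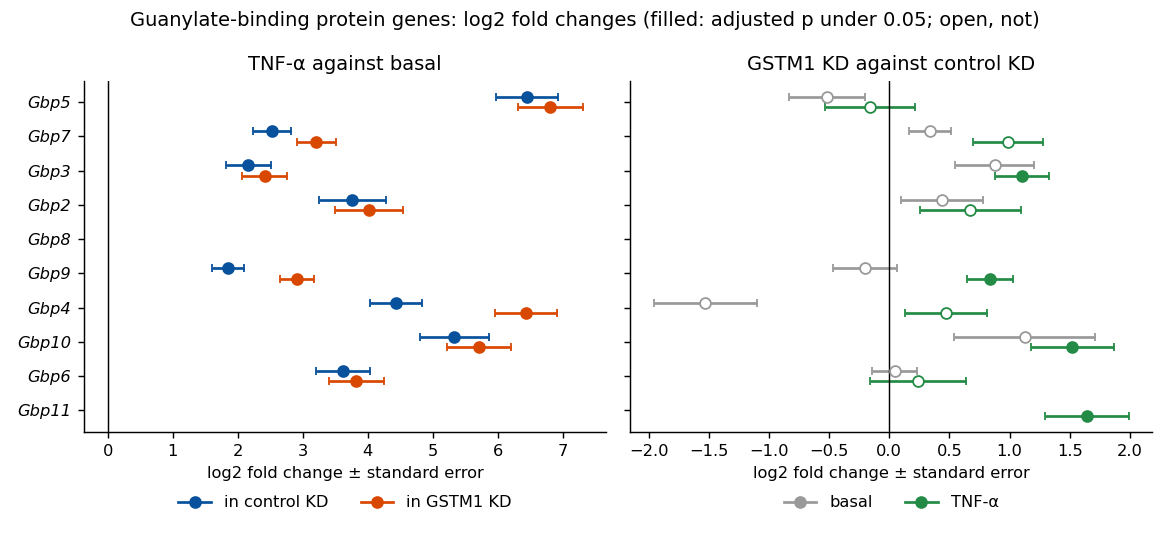
Log2 fold change with its standard error for each gene tested, for TNF-α against the basal level (left) and GSTM1 KD against control KD (right); filled points have an adjusted p under 0.05 in edgeR. The responses to TNF-α lie between 1.85 and 6.81 and all pass, while the knockdown differences lie between -1.53 and 1.64 and 4 of them, all with TNF-α, pass. Gbp8 was not tested, and Gbp11 is shown only in the comparison with TNF-α, since its basal counts were too few. The lowest knockdown difference is that of Gbp4 at the basal level, which passed the filter only through control KD.

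At the basal level the GBP genes did not pass the main test between the knockdowns. Of the 8 members tested, 0 were called by edgeR in either direction, where 10.2% of the 14899 genes tested were, and 2 had an unadjusted p under 0.05. DESeq2 called 1 (Gbp3). With a replicate block edgeR called more, as given under the processing, although no pairing of the replicates is stated. The largest fitted difference was that of Gbp4 (log2 fold change -1.53, SE 0.43, adjusted p = 0.0769). It was at 0.88 and 1.29 CPM in control KD and at 0.39 and 0.35 CPM in GSTM1 KD. Gbp4 passed the filter on low counts here only through control KD, where it was higher, so its direction and rank carry no weight. Gbp3 was at 14.5 and 29.5 CPM in control KD and 36.7 and 43.6 CPM in GSTM1 KD (0.88, SE 0.33, adjusted p = 0.140). Gbp10 was at 0.20 and 0.47 CPM and at 0.90 and 0.50 CPM (1.13, SE 0.59, adjusted p = 0.245). These rest on 6.63 and 11.7 counts in control KD against 21.3 and 10.4 in GSTM1 KD. Gbp10 would not have passed the filter through control KD alone, so its direction carries no weight either. Gbp5 was at 3.56 and 5.71 CPM and at 3.43 and 3.004 CPM (-0.52, SE 0.32, adjusted p = 0.314). Gbp3 and Gbp7 were higher and Gbp5 lower in GSTM1 KD without overlap of the libraries, which 32.3% of all genes did on the higher side and 31.2% on the lower side. Gbp10 (higher) and Gbp4 (lower) did not overlap either, but neither would have passed the filter without the group where it was higher. In Gbp2, Gbp6 and Gbp9 the groups overlapped, with log2 fold changes of 0.44, 0.046 and -0.20. Without control KD basal replicate 2, Gbp3 and Gbp2 passed the test, so that the count was 2.

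After TNF-α, 4 of the 9 members tested were higher in GSTM1 KD than in control KD and 0 were lower, where 7.26% of the 14593 genes tested were higher. The 4 were Gbp3 on chromosome 3 and Gbp9, Gbp10 and Gbp11 on chromosome 5. The median log2 fold change was 0.83 over the 9 members and -0.011 over all genes tested. Gbp11 was at 1.29 and 1.86 CPM in control KD and at 5.86 and 4.02 CPM in GSTM1 KD (log2 fold change 1.64, SE 0.35, adjusted p = 0.0366). Gbp10 was at 9.04 and 17.1 CPM in control KD and at 45.2 and 30.1 CPM in GSTM1 KD (1.52, SE 0.34, adjusted p = 0.0412). In both genes the lower GSTM1 KD library was more than 1.5 times the higher control KD library. Gbp3 was at 76.8 and 119 CPM against 235 and 192 CPM (1.10, SE 0.23, adjusted p = 0.0335), and Gbp9 at 32.5 and 36.4 CPM against 73.4 and 51.3 CPM (0.83, SE 0.19, adjusted p = 0.0416). These correspond to 2.15-fold for Gbp3 and 1.78-fold for Gbp9.

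The other 5 did not pass. Gbp7 was at 91.7 and 155 CPM in control KD and at 294 and 202 CPM in GSTM1 KD (log2 fold change 0.99, SE 0.29, adjusted p = 0.0721). Gbp2 was at 234 and 605 CPM against 732 and 626 CPM (0.67, SE 0.42, adjusted p = 0.297). Its control KD replicate 2 lay just under the lower GSTM1 KD library. Gbp4 was at 23.1 and 23.0 CPM against 44.0 and 20.8 CPM (0.47, SE 0.34, adjusted p = 0.366), Gbp6 at 206 and 504 CPM against 463 and 385 CPM (0.24, SE 0.40, adjusted p = 0.700) and Gbp5 at 242 and 557 CPM against 399 and 326 CPM (-0.16, SE 0.37, adjusted p = 0.789). In Gbp4, Gbp5 and Gbp6 the groups overlapped, and in the other 6 every GSTM1 KD library was the higher, as in 34.6% of all genes. In 8 of the 9 members tested, Gbp3, Gbp9, Gbp10 and Gbp11 included, control KD replicate 1, the library with the low astrocyte markers, was the lower of the control KD libraries with TNF-α, and in Gbp4 it was nearly equal.

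The count of 4 turned on single libraries. Without either GSTM1 KD TNF-α library it was 0, with 4 and 6 members at an unadjusted p under 0.05. Without control KD TNF-α replicate 2 it was 8, all higher. Without control KD TNF-α replicate 1 it was 5, with Gbp3, Gbp9, Gbp10 and Gbp11 higher and Gbp5 lower (-0.64). The log2 fold changes of Gbp3, Gbp9, Gbp10 and Gbp11 stayed between 0.56 and 2.04 whichever library was left out. For Gbp10 the division of reads with Gm43302 also matters. That model had 0.86 and 9.50 CPM in control KD and 37.3 and 21.9 CPM in GSTM1 KD with TNF-α, so it was higher in GSTM1 KD as well (2.56, SE 0.89, adjusted p = 0.103). The sum of Gbp6, Gbp10 and Gm43302, which does not depend on the division, was 215 and 530 CPM for control KD against 546 and 437 CPM for GSTM1 KD, and these overlapped. Gbp7 together with Gm43802 was at 93.1 and 156 CPM against 301 and 205 CPM, which is close to Gbp7 alone.

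The response to TNF-α itself was compared between the knockdowns with the interaction term. edgeR called 0 of the 8 members and 0% of the 15332 genes, with 2 members and 295 genes at an unadjusted p under 0.05. DESeq2 called 0 members and 27 genes. The differences in log2 response (GSTM1 KD minus control KD) were above 0 in all 8, with a median of 0.37, although those of Gbp2, Gbp3, Gbp5, Gbp6 and Gbp10 fell below 0 when control KD basal replicate 2 or control KD TNF-α replicate 1 was left out. The largest were those of Gbp4 (2.01, SE 0.66, adjusted p = 1.0) and Gbp9 (1.06, SE 0.35, adjusted p = 1.0). The other 6 lay between 0.21 for Gbp6 (SE 0.54) and 0.68 for Gbp7 (SE 0.40). For Gbp4 the control KD and GSTM1 KD values overlapped after TNF-α and lay apart at the basal level, on 31 and 33.1 counts against 9 and 7 counts. For Gbp9 it was the reverse, with the basal groups overlapping and the TNF-α groups apart. Gbp4 passed the filter in the basal libraries only through control KD, so its place as the largest difference is a description only.

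The make-up of the family was measured as the share of each gene in the summed TPM of the 10, here after TNF-α. Gbp5 made up 25.97% and 26.8% of it in the control KD libraries against 17.0% and 17.0% in those of GSTM1 KD. Gbp2 made up 31.4% and 36.5% against 39.3% and 41.1%. So Gbp5 stood at 82.6% and 73.6% of the Gbp2 level in control KD and at 43.3% and 41.4% in GSTM1 KD. The shares of Gbp6 (20.2% and 21.3% against 16.8% and 17.2%) and Gbp10 (1.00% and 0.80% against 1.97% and 1.80%) did not overlap either, nor did those of Gbp3 (10.01% and 7.32% against 12.7% and 13.0%), Gbp7 (6.29% and 4.92% against 7.83% and 6.72%) and Gbp11 (0.16% and 0.10% against 0.29% and 0.25%). Gbp2, Gbp3, Gbp7, Gbp10 and Gbp11 thus took the larger share in GSTM1 KD, and Gbp5 and Gbp6 the smaller. The shares of Gbp4 (2.47% and 1.00% against 2.02% and 1.00%) and Gbp9 (2.47% and 1.26% against 2.09% and 1.87%) overlapped. These shares do not depend on the scaling of a library. Unlike the CPM values, those of Gbp5 and Gbp6 were close between the control KD replicates. At the basal level Gbp5 made up 3.94% and 3.67% against 2.21% and 1.67%. Gbp3 had the larger share in GSTM1 KD there (21.05% and 26.6% against 32.8% and 35.3%). Gbp6 (25.1% and 19.1% against 18.0% and 14.5%), Gbp9 (5.92% and 5.54% against 3.79% and 3.29%) and Gbp4 (1.27% and 0.85% against 0.43% and 0.14%) had the smaller share, and the others overlapped. The exact permutation test of 2 libraries against 2 cannot give a p below 0.333, so these are given as values, and a share in a sum moves with the other genes.

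**Figure D3:**
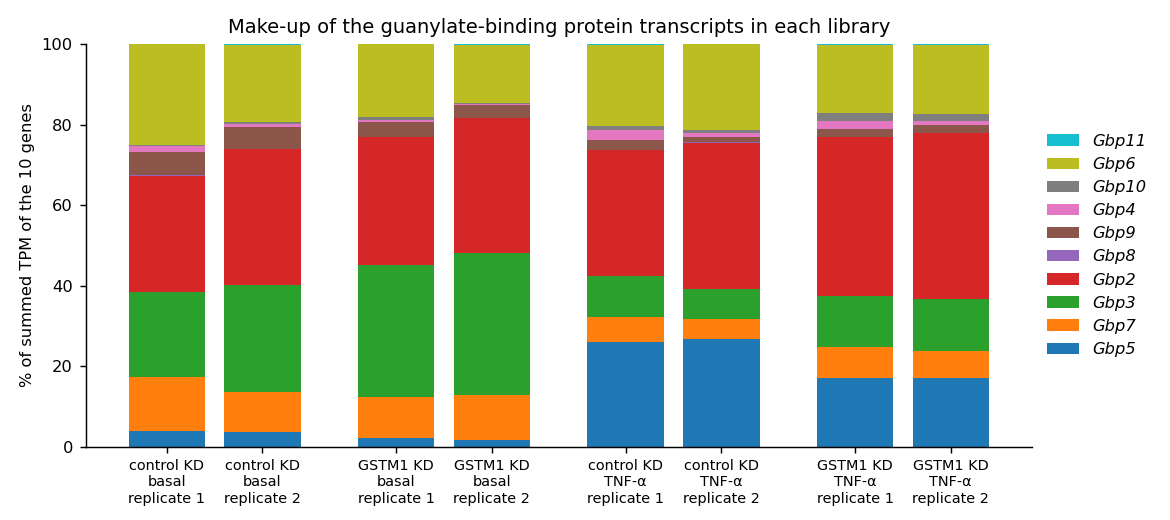
Share of each gene in the summed TPM of the 10 genes (vertical axis, %), 1 bar a library. Gbp5 (blue) is under 4% in the basal libraries, at 25.97% and 26.8% in control KD with TNF-α and at 17.0% in both GSTM1 KD libraries with TNF-α.

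The known activators of the family were measured in the same libraries. Ifng, which encodes interferon-γ, had 0 counts in all 8, which allows up to 3 counts, or 0.180 CPM in the shallowest library. Ifnb1, which encodes interferon-β, had 0 counts in the 4 basal libraries, 7 and 1 counts in control KD with TNF-α and 25 and 9 counts in GSTM1 KD with TNF-α. That difference did not pass the test (adjusted p = 0.115). Ifnb1 passed the filter on low counts only through GSTM1 KD, where it was higher, so the fit carries no weight. Irf1, a transcription factor that acts directly on GBP promoters, rose with TNF-α in both kinds of culture (log2 fold changes of 3.11, adjusted p = 0.000239, for control KD and 3.22, adjusted p = 0.000255, for GSTM1 KD). With TNF-α it was at 169 and 189 CPM in control KD and at 211 and 177 CPM in GSTM1 KD, which overlapped (0.089, SE 0.13, adjusted p = 0.656). Irf9, a transcription factor of type I interferon signalling, was at 59.3 and 52.7 CPM in control KD with TNF-α against 136 and 104 CPM for GSTM1 KD (1.07, SE 0.16, adjusted p = 0.0178). Nlrc5, the activator of MHC class I genes, did not pass (1.09, SE 0.34, adjusted p = 0.0856). Of the interferon-γ receptor genes, Ifngr2 rose with TNF-α in both (1.34 and 1.73) and was lower in GSTM1 KD at the basal level (-0.76, SE 0.13, adjusted p = 0.029), and Ifngr1 did not pass between the knockdowns. Ifnar1, a subunit of the type I receptor, was lower in GSTM1 KD with TNF-α (-0.49, SE 0.090, adjusted p = 0.0265).

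Other lists of the pathway were counted in the same fits. Of the 12 other interferon-inducible GTPases that also passed the filter in the basal libraries, 7 rose with TNF-α in the control KD astrocytes, 10 in the GSTM1 KD astrocytes, and 0 fell. Between the knockdowns with TNF-α, 13 of 14 tested were higher in GSTM1 KD, with a median log2 fold change of 1.85. Iigp1, an IRG that GBPs bring to vacuoles, was at 31.9 and 33.5 CPM in control KD and at 261 and 120 CPM in GSTM1 KD (2.52, SE 0.37, adjusted p = 0.0177). Irgm1, a regulator of the IRGs, was at 117 and 128 CPM against 444 and 247 CPM (1.47, SE 0.28, adjusted p = 0.0279). Their median was above that of the GBP genes, but the ranges of both lists overlapped, and the difference between the lists was not tested. Igtp (1.44) lay below Gbp10 and Gbp11, and Irgq (0.70) below Gbp3, Gbp7, Gbp9, Gbp10 and Gbp11. Irgq passed in neither response to TNF-α and was already higher in GSTM1 KD at the basal level (0.99, SE 0.13, adjusted p = 0.0194). Of 23 other interferon-induced genes that passed the filter in the basal libraries too, 14 were higher with TNF-α for control KD against 21 for GSTM1 KD. Among the 26 tested with TNF-α, 12 were higher in GSTM1 KD than in control KD with TNF-α.

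Of 17 signalling genes and transcription factors tested, 4 rose with TNF-α in control KD and 10 in GSTM1 KD. Between the knockdowns with TNF-α, 6 were higher and 2, Jak2 and Irf8, were lower in GSTM1 KD. Irf8 had 23 and 14 counts in control KD against 4 and 3 in GSTM1 KD. It passed the filter on low counts only through control KD, so its call carries no weight. Among the 6 that were higher, beside Irf9, were Irf7, the amplifier of type I interferon transcription (1.54, SE 0.32, adjusted p = 0.0337), Usp18, a feedback inhibitor of the type I receptor (1.57, SE 0.34, adjusted p = 0.0387), and Irf2 (0.67, SE 0.17, adjusted p = 0.0498). Of the 6 NF-κB genes, 5 were higher with TNF-α in each. Rela, which encodes the p65 subunit, was the 1 of them that passed between the knockdowns, lower in GSTM1 KD both at the basal level (-0.61, SE 0.10, adjusted p = 0.027) and with TNF-α (-0.76, SE 0.10, adjusted p = 0.0152). Of 14 genes tested in the basal libraries too whose products work with GBPs, such as caspases and prenylating enzymes, 2 were higher with TNF-α in control KD and 3 in GSTM1 KD. Casp4 was among them (log2 fold changes of 3.07, adjusted p = 0.00764, for control KD and 4.72, adjusted p = 0.00243, for GSTM1 KD). With TNF-α, Trim21 was higher in GSTM1 KD (1.03, SE 0.24, adjusted p = 0.0431). Nlrp3 had 38 and 17 counts in control KD with TNF-α against 5 and 3 in GSTM1 KD. It passed the filter on low counts only through control KD, so it is given by its counts alone.

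**Figure D4:**
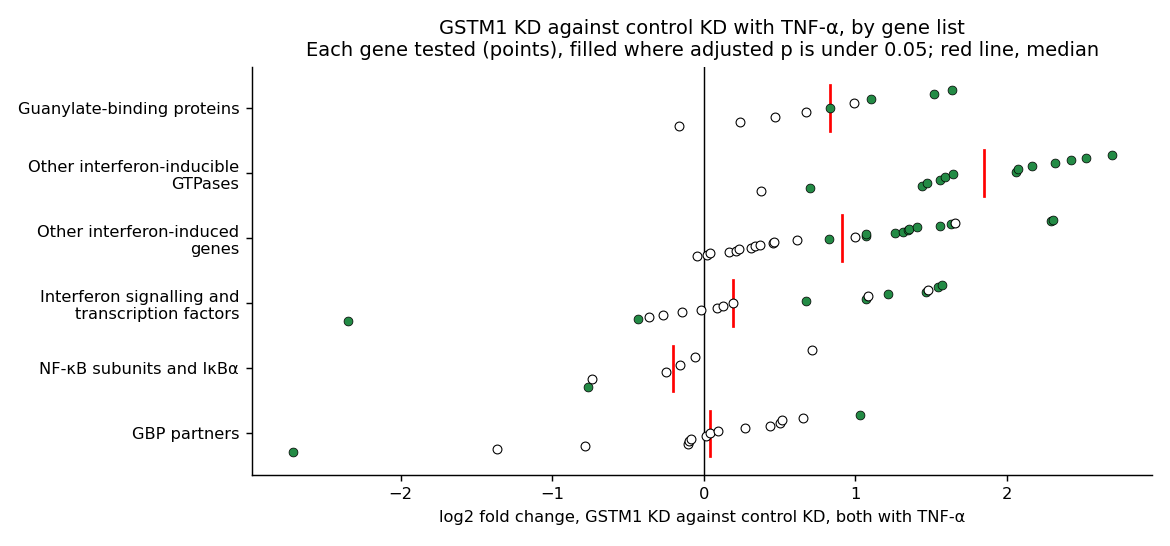
Log2 fold change of GSTM1 KD against control KD with TNF-α for each gene tested (horizontal axis), by gene list, with red lines at the medians and filled points at an adjusted p under 0.05. The GBP genes have a median of 0.83 with 4 of 9 filled, and the other interferon-inducible GTPases a median of 1.85 with 13 of 14 filled.

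The genes whose pattern over the 8 libraries was most like the mean of the 9 tested members were Tap2 (Pearson r = 0.998), Cyfip1 (0.993), H2-K1 (0.993), Slfn2 (0.993) and Parp14 (0.991), ranked among 12388 genes. The 8 libraries share the split between the basal level and TNF-α, and how much of such a correlation it sets was not measured. Tap2, a subunit of the peptide transporter of MHC class I, had 65.5 to 79.5 CPM in the basal libraries and 161 to 240 CPM with TNF-α. Slfn2, an interferon-induced Schlafen gene, had 1.00 to 1.84 CPM and then 16.7 to 61.2 CPM. Among the members themselves the correlation ran from 0.846 for Gbp3 with Gbp4 to 0.996 for Gbp9 with Gbp11. These correlations carry no test, and sit on the same split between the states.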

How the data were processed

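RNA-seq was carried out on 8 astrocyte libraries in 4 groups of 2. Libraries were made with a directional kit and read as 100-base pairs. By the submitters' processing notes, the authors aligned reads with STAR 2.5.4b to GRCm38 and quantified genes with RSEM 1.3.0. Whether strand was used in counting is not given in the sources used here. The deposited expected counts are not whole where reads were divided between genes, and they were rounded for the tests. The TPM values are as the authors deposited them. The deposited effective length of each gene (RSEM's other column) was used for an alternative.

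CPM used TMM-scaled library sizes. Tests were edgeR 4.0.16 quasi-likelihood tests in R 4.3.3 over all genes passing filterByExpr, with Benjamini-Hochberg adjustment at 0.05. Responses to TNF-α and their difference were fitted on 8 libraries, knockdown comparisons on the 4 of that state. SE is the log2 fold change divided by the root of F. The test was checked on simulated data. Alternatives were DESeq2 1.42.0, other scalings, filters, a replicate block and leaving out libraries. Promoters came from RefSeq and were scanned for fixed motifs.

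All members were named, with list genes that passed or are known activators, Gstm1, and the 5 genes most like the members among those with a mean log2 CPM of 1 or more. Responses to TNF-α were counted over genes that also passed filterByExpr in the basal comparison, and the fitted Gbp11 responses were replaced by count ratios because its basal counts were too few. The members and lists were chosen with earlier results of these data known. Replicates are stated to be biological, and at n = 2 their spread is poorly known. Replicates of a group differed beyond sampling noise (chi-square per gene 13.8 to 56.1). Intervals and floors cover counting error only, with a floor of 3 counts equal to 0.085 to 0.180 CPM. The values of 1 listed signalling gene are not reported here.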

Additional observations from a re-analysis of the deposited data

Results flagged for a closer look

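Gm43302, the gene model that spans exons of Gbp10 and Gbp6, is a row outside the comparisons of the 10 genes, and it had signal above the control samples. Its mean was 29.6 ± 10.9 CPM (SD, n = 2) in GSTM1 KD with TNF-α and 5.18 ± 6.11 CPM in control KD with TNF-α, with 0.28 ± 0.32 and 0.74 ± 0.86 CPM at the basal level. The difference between the knockdowns with TNF-α did not pass edgeR's test (adjusted p = 0.103), and whether these reads come from a transcript of its own or from Gbp6 and Gbp10 was not tested.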

How the results depend on the processing

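With Gbp11 counted, which passed the filter only through the libraries with TNF-α, 9 members were called in both TNF-α responses, and 8 without it, a choice made after seeing the data. The count with Gbp11 kept within 1.5 times of 9 under DESeq2, other scalings, filters, effective length offsets and the replicate block, but it was 2 for control KD when only its 4 libraries were fitted. Leaving out libraries gave 6 to 9 in control KD and 4 to 9 in GSTM1 KD. For GSTM1 KD against control KD at the basal level the count of 0 became 1 with DESeq2, 2 with no filter on low counts, 3 with the replicate block, and 0 to 2 on leaving out a library. With TNF-α the count of 4 became 7 with no filter, 5 with the block, and 0 to 8 on leaving out a library. For the difference in response the count of 0 became 2 (Gbp4 and Gbp9) with no filter, and it stayed 0 with the block and whichever library was left out. The causes of these shifts were not tested.

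Replicate numbers are shared between groups without a stated pairing. Deviations from the group means correlated at 0.165 to 0.575 between same-numbered libraries, and with 2 numbers this does not establish pairs. The block moved the genes called over the whole table from 403 to 988 and from 406 to 808 for the TNF-α responses in control KD and GSTM1 KD. It moved them from 1524 to 4712 and from 2360 to 4302 for the knockdown comparisons without and with TNF-α, and left the difference at 0. DESeq2 called 742, 630, 2492, 2824 and 27 in the same order, and edgeR with no filter 1255, 1050, 3957, 4540 and 134. The TNF-α responses fitted on their own 4 libraries gave 72 and 691, and the basal knockdown comparison on all 8 gave 2762.

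Of 643 alternative values of the members' log2 fold changes, 567 kept direction and call, 37 lost the call, 21 gained it and 18 changed sign. At the basal level, leaving out a library moved Gbp2 between -0.0053 and 1.05, Gbp9 between -0.51 and 0.15 and Gbp6 between -0.17 and 0.28. With TNF-α it moved Gbp4 between -0.16 and 0.91, Gbp6 between -0.27 and 1.02 and Gbp5 between -0.64 and 0.56. In the difference in response it moved Gbp3 between -0.35 and 0.68, Gbp2 between -0.37 and 1.08, Gbp6 between -0.29 and 0.98, Gbp10 between -0.29 and 0.94 and Gbp5 between -0.11 and 1.07. Without both control KD libraries numbered 1, a choice made after seeing the data, the difference in response of Gbp6 was -0.081. The order of the members by level was the same for all 10 in each group by CPM per kilobase of effective length. Depth limits Gbp8 and Gbp11 most, with few or no basal counts.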
